A study of Mus musculus with 12 samples.

Results

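The genotype difference in the hypothalamus of chow-fed mice is described here for every gene with a mean of at least 100 normalized counts over the 6 chow mice. Of the 16855 genes in the chow table, 12413 passed that minimum, and they held 98.8% of the summed counts. The study profiled hypothalamus RNA from 12 male C57BL/6J mice of 8 weeks by RNA-Seq, 3 in each of 4 groups. WT mice and Gpr75-/- mice ate chow throughout, or were moved to a high-fat diet (HFD) at 6 weeks of age for 2 weeks. The Gpr75-/- mice carried, on both copies, a CRISPR/Cas9 null allele that ends translation soon after the start codon, and the study used littermate controls. The deposited table holds 1 level for each genotype and no values of single mice, and the authors' own test columns were not used. No difference given here therefore has a test, a replicate check or an SD.

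GPR75 is a G protein-coupled receptor of the brain that has been linked to body weight. The hypothalamus holds the peptide neurons that set hunger, water balance and hormone release, beside astrocytes, oligodendrocytes and the tanycytes and ependymal cells that line the third ventricle. The choroid plexus, which secretes cerebrospinal fluid, lies in the ventricles near it, and the striatum and basal forebrain lie beside and in front of it.

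Each difference is the Gpr75-/- level minus the WT level on the log2 scale of CPM (read counts scaled to a common library size), so that 0.26 is 1.2-fold and 0.58 is 1.5-fold. Group levels were deposited to 2 decimals on a doubly logarithmic scale that the files do not name. Read as log2(log2(CPM) + 1), they gave the mean count back to within 0.05 on the log2 scale for 99.4% of the genes. The rounding alone allows ± 0.0274 (log2) at a mean of 100 to 200 and ± 0.0744 over 10000. Both genotypes had the same 2-decimal level in 2244 genes. Hypothalamic peptides were present in both groups. In CPM, Gpr75-/- and WT levels were 256 and 245 for Pmch (melanin-concentrating hormone), 123 and 114 for Hcrt (orexin), and 114 and 110 for Oxt (oxytocin).

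Gpr75 itself, on chromosome 11 at 30835358 to 30843729 (GRCm39), stood at 24.6 CPM in the chow Gpr75-/- mice and 16.7 CPM in the chow WT mice, a difference of 0.55 (rounding allows 0.52 to 0.59). Because the allele stops translation and leaves the gene in place, the mRNA level does not check the genotype labels. In the HFD mice, which are other animals with their own WT group, the levels were 18.4 and 19.9 CPM. Within 1 Mb of Gpr75, 9 other genes passed the minimum. Their differences ran from -0.25 for Eml6 to 0.05 for Bod1, and 0 of the 9 reached 1.2-fold. Asb3, whose annotated span overlaps Gpr75, had 32.5 and 31.5 CPM.

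Across all 12413 genes the chow genotypes lay close together. The median difference was 0, and the interquartile range was -0.06 to 0.07. The Gpr75-/- level was above the WT level in 5285 genes (42.6%) and below it in 4884 (39.3%). At 1.2-fold or more, 265 genes were higher (2.13%) and 277 lower (2.23%). At 1.5-fold or more the counts were 16 (0.129%) and 18 (0.145%). The counts and their balance depended on the minimum. With a minimum mean of 50, 507 genes were higher and 486 lower by 1.2-fold, and 41 and 32 by 1.5-fold, and with none 1021 and 924, and 104 and 87. With a minimum of 200 the counts were 120 and 169 by 1.2-fold and 11 and 9 by 1.5-fold. At the minimum of 100 used throughout, the percentages above are the background against which each gene group below is read.

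Genes that differed by 1.2-fold on chow tended to the same side in the HFD mice. Of the 265 higher on chow, 173 were also higher on the HFD, 68 were lower and 24 equal, with a median of 0.07. Of the 277 lower on chow, 187 were lower on the HFD and 73 higher, with a median of -0.09. Over all 12413 genes, 44.6% were higher and 33.7% lower on the HFD. The 2 diets share no mice. Past 1.5-fold on chow this did not hold for the 16 higher genes, of which 8 were higher and 8 lower on the HFD. Of the 18 lower genes, 14 were lower again. By 1.5-fold on the HFD, 1 of the 16 was higher and 1 lower, and 1 of the 18 was higher and 4 lower. Over all genes those shares were 0.0242% higher and 0.121% lower. Over all 12413 genes the chow and HFD differences had a Pearson correlation of 0.20, which is a description across genes and not across samples.

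The width of the differences depended on expression level. At a mean of 100 to 200 the interquartile range of 1927 genes was -0.10 to 0.12, and 145 genes were higher and 108 lower by 1.2-fold. At 500 to 1000 that of 2860 genes had narrowed to -0.05 to 0.05, with 25 higher and 32 lower. From there up, the width followed the rounding step of the deposited values, so narrower differences could not be seen. The balance of the larger differences also turned with level: at 1000 to 2000 there were 11 genes higher and 29 lower by 1.2-fold, at 2000 to 5000 there were 7 and 18, and over 10000 there were 0 and 2.

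**Figure D1:**
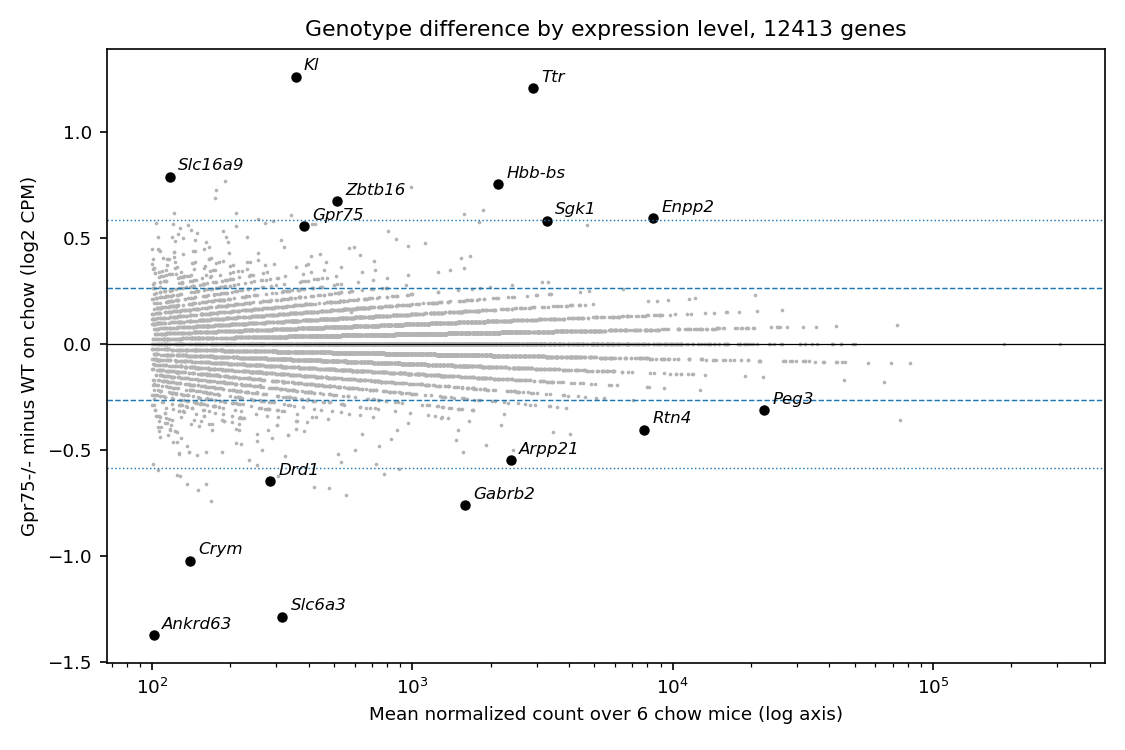
Difference between chow Gpr75-/- and chow WT mice (log2 CPM, vertical axis) against the mean normalized count over the 6 mice (log axis) for 12413 genes, 1 point per gene. Dashed lines mark 1.2-fold and dotted lines 1.5-fold. The bands are the 2-decimal steps of the deposited levels, and the named genes outside them run from Ankrd63 (-1.37) to Kl (1.26).

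The highest protein-coding genes included products of the choroid plexus, blood and the stress response. Kl encodes klotho, a choroid plexus and kidney protein, and stood at 15.9 CPM in Gpr75-/- and 6.64 CPM in WT mice, 2.40-fold. Ttr, the thyroid hormone carrier transthyretin, had 12.9 and 5.59 CPM, 2.31-fold. For both genes the mean over the mice and the group levels disagreed. The mean over the 6 mice exceeded the average of the 2 group levels by 4.10 on the log2 scale for Ttr and by 0.79 for Kl. No values of single mice were at hand to show which mice made this gap. For all genes this excess had a median of 0.01 and a 99th percentile of 0.04, and it was above 0.1 for 25 genes. Slc16a9, a carnitine transporter, followed with 7.85 and 4.54 CPM (0.79) and an excess of 0.05. Its WT level lay under 5.47 CPM, which equals the minimum of 100 counts, so it passed only with the higher Gpr75-/- level. Plin4, a lipid droplet protein, had 12.6 and 7.42 CPM (0.77). Xdh, xanthine dehydrogenase, had 13.8 and 9.0 CPM (0.62).

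At the other end, the lowest protein-coding genes were of mixed function. The minimum of 100 counts equals 5.47 CPM, so Ankrd63, with both group levels below that, passed only through the mean over the mice. Ankrd63 stood at 1.93 CPM in Gpr75-/- and 4.98 CPM in WT mice, 0.386 of the WT level, with an excess of 0.69. Slc6a3, the dopamine transporter, had 8.82 and 21.5 CPM (-1.29, excess 0.19). Crym, a cytosolic thyroid hormone binding protein, had 3.46 and 7.02 CPM (-1.02, excess 0.55), with the Gpr75-/- level under 5.47 CPM. For the next genes the excess was smaller. Gabrb2, a GABA-A receptor subunit, had 60.4 and 102 CPM (-0.76, excess 0.095), Hes5, a Notch target, had 6.19 and 9.97 CPM (-0.69, excess 0.02), and Akap5, a kinase anchor of the postsynapse, had 16.7 and 26.6 CPM (-0.67, excess 0.08). In the HFD mice Slc6a3 (-0.87) and Gabrb2 (-0.66) were again lower, whereas Hes5 was 0.10.

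Among abundant genes few differences reached 1.2-fold. Over a mean of 10000, 0 of 186 genes were higher and 2 lower by that fold. Between 5000 and 10000, 1 of 359 was higher and 2 were lower, against 2.13% and 2.23% of all genes. Over a mean of 10000 the highest were Gm15564 (0.23), Hspa5 (0.22), the endoplasmic reticulum chaperone BiP, and Tmem30a (0.21), a flippase subunit. Peg3, an imprinted zinc finger gene, had 1083 and 1344 CPM (-0.31), and Kif1b, an axonal motor, was at -0.22. Between 5000 and 10000 the highest was Enpp2 with 461 and 305 CPM (0.60, excess 0.26, HFD -0.19). The lowest there was Rtn4, the myelin and endoplasmic reticulum protein Nogo, which had 365 and 484 CPM (-0.40), and was at -0.07 on the HFD.

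Differences were then compared between gene classes. The type given by the annotation was protein_coding for 11628 genes, processed_pseudogene for 292, lncRNA for 268 and TEC, a provisional class of mostly unspliced transcripts yet to be experimentally checked, for 137. Protein-coding genes had a median of 0, with 4923 higher and 4540 lower, and 188 higher and 229 lower by 1.2-fold.

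Processed pseudogenes, which are intronless copies of mRNAs set back into the genome, leaned to higher levels in Gpr75-/- mice. Their median was 0.08, 201 were higher and 66 lower, and 58 were higher by 1.2-fold against 6 lower. The median was 0.13 with a minimum mean of 50, 0.16 with none and 0.057 with 200. They made up 2.35% of all genes and 21.9% of the 265 genes past 1.2-fold upward. The lean was present at each level up to a mean of 2000: the median was 0.11 for 162 genes at 100 to 200, 0.07 for 80 genes at 200 to 500, 0.04 for 31 at 500 to 1000 and 0.05 for 14 at 1000 to 2000. Of the 4 genes at 2000 to 5000, 3 were lower (median -0.11). On the HFD the median was 0.06, with 176 higher and 75 lower.

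The highest was Gm4828 with 11.8 CPM in Gpr75-/- and 7.15 CPM in WT mice (0.73), followed by Gm7232 with 18.9 and 12.6 CPM (0.58) and Gm8337 with 6.64 and 4.47 CPM (0.57). For Gm8337 the WT level lay under 5.47 CPM, so it passed only with the higher Gpr75-/- level. Fth1-ps, a copy of the ferritin heavy chain mRNA, had 8.82 and 5.98 CPM (0.56). The lowest was Gm10705 with 6.77 and 11.3 CPM (-0.74), and on the HFD it was at 0.39. Such copies can share reads with their parent mRNA, and how the authors' counting divided these reads is not given in the sources used here, so every pseudogene level is uncertain.

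The parent genes did not lean the same way. Names tied 73 processed pseudogenes to 64 parent genes that also passed the minimum, a comparison chosen after the values were seen. Of the pseudogenes 51 were higher and 12 lower (median 0.05), and of the parents 23 were higher and 22 lower (median 0). In 54 pairs the pseudogene's difference lay above its parent's and in 17 below. Fth1 itself, the iron store subunit, had 1990 CPM in both groups (0), beside 0.56 for Fth1-ps. Eef1a1, a translation elongation factor, was at 0 beside 0.45 for Eef1a1-ps1, and Hspd1, the mitochondrial chaperonin, was at 0.06 beside 0.49 for Hspd1-ps3. The WT level of Eef1a1-ps1, 4.54 CPM, lay under 5.47 CPM, so it passed only with the higher Gpr75-/- level. Rpl13 was at -0.22 beside 0.06 for Rpl13-ps3. Idi1 and Idi1-ps1 lay side by side, at 0.25 and 0.26.

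The lncRNA and TEC classes lay on the other side. Among the 268 lncRNA genes 74 were higher and 160 lower, with a median of -0.05 and 7 higher against 22 lower by 1.2-fold. Among the 137 TEC genes 45 were higher and 87 lower, with a median of -0.09 and 2 against 19. Both medians lay at or above 0 on the HFD, at 0 for lncRNA and 0.02 for TEC. The lowest lncRNA was Gm43305 with 5.59 and 8.82 CPM (-0.66), which was at 0.63 on the HFD. The lowest TEC gene was Gm37363 with 5.32 and 8.16 CPM (-0.62, HFD -0.22). Its Gpr75-/- level lay under 5.47 CPM, so it passed only with the higher WT level. At higher levels the lncRNAs went both ways. Of 7 at a mean of 2000 to 5000, 6 were lower (median -0.11). Meg3, an imprinted neuronal RNA, had 3005 and 3193 CPM (-0.09), whereas Gm15564 (0.23), Gm47283 (0.41) and Erdr1 (0.34) were higher.

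Of the 7 genes in the miRNA class, 6 were higher in Gpr75-/- mice and 5 of them by 1.2-fold, with a median of 0.36 on chow and 0.26 on the HFD. Mir6236 had 114 CPM in Gpr75-/- and 76.6 CPM in WT mice (0.58), and 114 and 94.9 CPM on the HFD. The library kit targets mRNA, so these reads do not measure mature miRNAs. The mature sequence that RefSeq (GRCm38.p6) gives for Mir6236 is shown with its seed, bases 2 to 8, in capitals, since it is the only named member of the class.
mmu-miR-6236: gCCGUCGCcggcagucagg

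**Figure D2:**
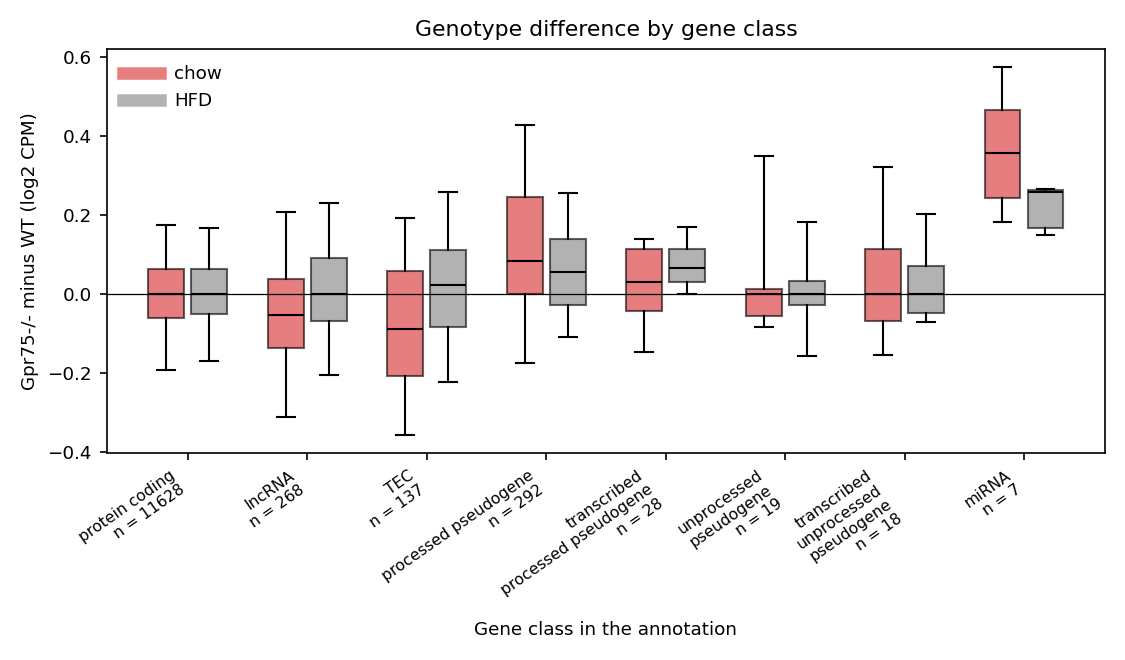
Gpr75-/- minus WT in log2 CPM for each gene class, on chow (red) and for the same genes on the HFD (gray). Boxes span the interquartile range, lines inside them are medians, whiskers reach the 5th and 95th percentiles, and genes beyond are not drawn. On chow, processed pseudogenes lie above 0 (median 0.08), and lncRNA (-0.05) and TEC (-0.09) below it.

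The span of a gene in the genome also went with direction, a grouping chosen after the values were seen. Of the 841 protein-coding genes over 200 kb, 223 were higher (26.5%) and 480 lower (57.1%) in Gpr75-/- mice, with a median of -0.05. By 1.2-fold, 6 of them were higher and 45 lower. Of the 3201 genes of 20 to 50 kb, 1552 were higher and 1054 lower, with 50 and 40 by 1.2-fold. The long genes were more often lower at each level: 97 higher and 155 lower at a mean of 100 to 500, 88 and 223 at 500 to 2000, and 38 and 102 over 2000. On the HFD 246 of the long genes were higher and 429 lower (median -0.03).

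**Figure D3:**
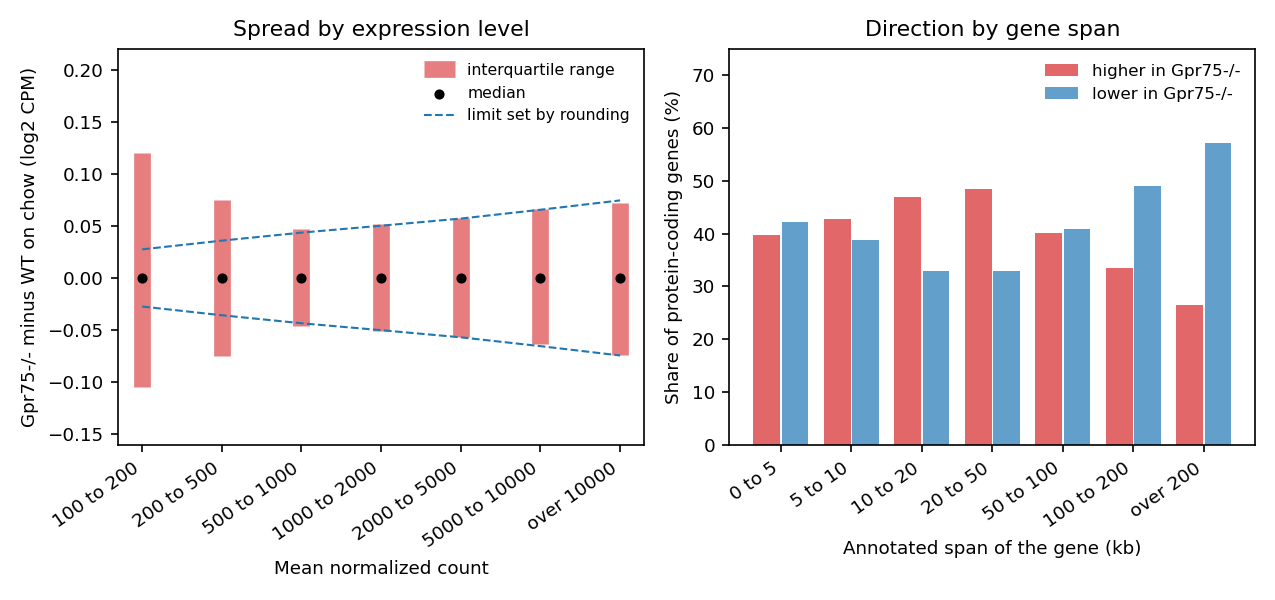
Left, the interquartile range (red bars) and median (points) of the chow difference in log2 CPM by mean normalized count, with the limit set by rounding as dashed lines. Right, the share (%) of protein-coding genes that were higher (red) or lower (blue) in chow Gpr75-/- mice by annotated span in kb, where the share lower reaches 57.1% over 200 kb.

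Genes that respond to glucocorticoids were higher in chow Gpr75-/- mice. Glucocorticoids are the adrenal stress hormones, and their receptor acts directly on chromatin to switch on such genes. Of 23 listed, 21 passed the minimum, 19 of the 21 were higher and 2 lower, and 12 were higher by 1.2-fold against 0 lower. The list's median was 0.35 (0.20 with a minimum mean of 200), against 0 over all genes, and 0.09 on the HFD, where 16 were higher and 1 passed 1.2-fold (1.22% of all genes did so upward and 1.55% downward).

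Zbtb16, a transcription factor, had 33.4 CPM in Gpr75-/- and 21.0 CPM in WT mice (0.67). Sgk1, a kinase that governs ion transport, had 207 and 138 CPM (0.58). Tsc22d3, the leucine zipper protein GILZ, had 305 and 207 CPM (0.56). Its HFD difference was 0.00, while Sgk1 stood at 0.25 with 319 and 267 CPM. Fkbp5, a chaperone that restrains the receptor, had 43.8 and 34.4 CPM on chow (0.35) and was at 0.36 on the HFD. Sult1a1, a sulfotransferase, was at 0.54 and Ddit4, an inhibitor of mTORC1, at 0.46 on chow. The lowest of the list were Klf9 (-0.11) and Dusp1 (-0.09), then Per1 (0.09) and Mt1 (0.12). Genes of red blood cells and of the choroid plexus were also higher in the same group of mice, and their part in these values was not tested.

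Promoters of the list were searched on both strands for the receptor's palindromic element, read as G, any base, ACA, any 3 bases, TGT, any base and C. RefSeq windows (GRCm38.p6) of 250 bases before to 50 after the start were found for 20 of the 21 genes, 31 windows in all. The motif was in the windows of 2 genes, Mt1 and Sgk1, and in 0.475% of 32851 promoters. They are shown because both belong to the list, with the motif in capitals.
Mt1, chr8:94178839-94179138, plus strand: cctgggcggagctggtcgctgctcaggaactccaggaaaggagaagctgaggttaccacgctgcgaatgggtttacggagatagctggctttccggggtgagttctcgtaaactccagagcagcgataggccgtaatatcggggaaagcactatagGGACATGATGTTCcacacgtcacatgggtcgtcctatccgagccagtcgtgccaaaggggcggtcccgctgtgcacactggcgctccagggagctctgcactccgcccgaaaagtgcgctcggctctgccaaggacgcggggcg
Sgk1, chr10:21993640-21993939, plus strand: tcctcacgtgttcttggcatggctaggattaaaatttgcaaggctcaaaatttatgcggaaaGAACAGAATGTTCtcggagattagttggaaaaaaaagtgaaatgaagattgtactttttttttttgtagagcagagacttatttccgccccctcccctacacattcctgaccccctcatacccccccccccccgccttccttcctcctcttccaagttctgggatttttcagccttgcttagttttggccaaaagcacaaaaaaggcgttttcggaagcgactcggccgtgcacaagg
The 2 genes differed by 0.12 and 0.58 on chow, and most of the list's higher genes had no match in these windows.

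**Figure D4:**
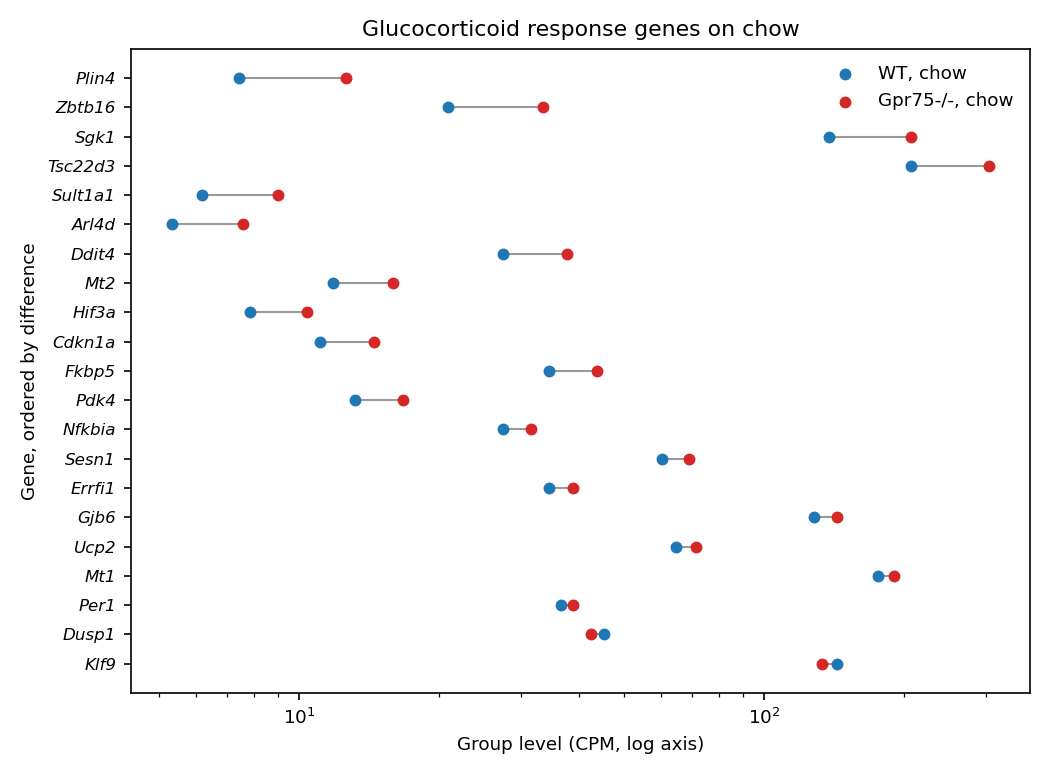
Group levels in CPM (log axis) of the 21 glucocorticoid response genes in chow WT mice (blue) and chow Gpr75-/- mice (red), ordered by difference. The Gpr75-/- point lies to the right for 19 genes and to the left for Klf9 and Dusp1.

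Chaperones leaned the same way by less. Of 25 genes, 20 were higher and 3 lower, with a median of 0.11 and 2 past 1.2-fold. Those 2 were the inducible HSP70 genes, near-identical neighbors on chromosome 17: Hspa1b had 11.3 and 7.02 CPM (0.69) and Hspa1a 9.0 and 6.64 CPM (0.44). Endoplasmic reticulum chaperones were next, with Pdia6, a disulfide isomerase, at 0.24, Creld2 at 0.23 and Sdf2l1 and Hspa5 at 0.22. Cytosolic Hsp90aa1 was at -0.16.

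Immediate early genes, which neurons switch on within minutes of firing, were divided. Of 19 that passed, 13 were lower and 6 higher, 6 were lower by 1.2-fold and 0 higher, and the median was -0.19. With a minimum mean of 200 the median was -0.089. Striatal neuron markers were lower in the same mice (28 of 29, median -0.34), and Egr3 and Egr4 also stand on the list of cortical neuron markers; their part was not tested. Egr3 had 6.30 and 9.97 CPM (-0.66, excess 0.11), Egr4 was at -0.56, Npas4 at -0.46 and Arc, a synaptic capsid-like protein, at -0.35 with 22.7 and 29.0 CPM. Fos, a widely used marker of firing, was at 0.05, Fosb at 0.15 and Fosl2 at 0.17. On the HFD the median was -0.13, 13 were lower, and Egr3 (-0.62), Egr4 (-0.44), Npas4 (-0.45) and Arc (-0.47) were low again.

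Oligodendrocyte genes, which build and keep myelin, were lower on both diets. All 30 listed genes passed the minimum, and 28 were lower and 1 higher on chow, with a median of -0.16 and 6 past 1.2-fold. In bulk tissue fewer cells of a type and less RNA per cell cannot be told apart. Aspa, which breaks down N-acetylaspartate, had 31.5 and 46.6 CPM (-0.56), Opalin, a myelin membrane protein, 26.6 and 37.6 CPM (-0.50), and Fa2h, which hydroxylates myelin lipids, 79.4 and 102 CPM (-0.36). The myelin proteins Mag (-0.30), Mog (-0.21) and Mbp (-0.18, 3394 and 3838 CPM) lay between, and Hapln2 (0) and Apod (0.06) were highest. On the HFD 28 were lower again, the median was -0.18 and 26 genes were lower on both diets. Precursor genes had a median of -0.05 on chow, with 7 of 12 lower.

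Of 27 lipid synthesis genes that passed, 16 were higher and 10 lower, with a median of 0.04, 2 higher and 2 lower by 1.2-fold. Besides Aspa and Fa2h, Scd1 (-0.18), Ugt8a (-0.16) and Gal3st1 (-0.16) were low, of which Ugt8a and Gal3st1 make myelin galactolipids. The 10 enzymes of cholesterol synthesis, taken from the list after values were seen, were higher without exception, between 0.04 and 0.29 with a median of 0.15, though only 1, Msmo1, passed 1.2-fold with 191 and 156 CPM. Of the other 17 genes, 6 were higher and 10 lower. On the HFD the 10 enzymes had a median of 0.00.

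Markers of striatal projection neurons, the output cells of the striatum, were lower on chow. The list was written after the lowest genes had been seen, so its direction is no independent evidence. Of 29 that passed the minimum, 28 were lower, 18 by 1.2-fold, with a median of -0.34. On the HFD the median was -0.08, with 20 lower and 6 higher. Ppp1r1b, the dopamine signal integrator DARPP-32, had 17.1 and 27.4 CPM (-0.68), and Drd1, the D1 dopamine receptor, 10.2 and 15.9 CPM (-0.65). For both the mean over the mice exceeded the group levels, by 0.24 and 0.25. Scn4b, a sodium channel subunit, had 32.5 and 49.7 CPM (-0.61) and Meis2, a transcription factor, 37.6 and 56.5 CPM (-0.59), each with an excess of 0.05. Penk, the enkephalin precursor, which striatal and hypothalamic cells both make, stands on the feeding peptide list and not on this one. It had 106 and 150 CPM (-0.50), and 123 and 114 CPM on the HFD.

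Cholinergic neuron genes, also listed after values were seen, were lower for 6 of 6 on both diets, with medians of -0.33 and -0.40. Chat, which makes acetylcholine, had 9.76 and 12.9 CPM (-0.40, HFD -0.44), and Slc5a7, the choline transporter, 18.9 and 22.7 CPM (-0.26, HFD -0.48). Among 8 dopamine neuron genes 7 were lower (median -0.15), and besides Slc6a3, Th, which makes the dopamine precursor, had 25.2 and 31.5 CPM (-0.32). Ddc (-0.04) and Nr4a2 (0.08) were nearest to 0 or above it.

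Blood and choroid plexus genes were higher in chow Gpr75-/- mice. All 5 red blood cell genes were higher by 1.2-fold or more: Hbb-bs had 144 CPM in Gpr75-/- and 85.2 CPM in WT mice (0.76), Hbb-bt 66.8 and 40.0 CPM (0.74), Hba-a1 123 and 79.4 CPM (0.63), Hba-a2 102 and 66.8 CPM (0.61), and Alas2, the first enzyme of heme synthesis in red cells, 7.28 and 5.78 CPM (0.33). The hemoglobin copies share sequence, so reads may be divided between them. On the HFD the 5 lay between -0.52 and -0.11. Of 17 choroid plexus genes in the table, 7 passed the minimum and 10 did not. The passing genes ran from Prlr (0.09) and Clic6 (0.39) to Enpp2, autotaxin, with 461 and 305 CPM (0.60, excess 0.26), Ttr and Kl, with a median of 0.45. That median was 0.24 without the 25 genes whose excess was above 0.1, a choice made after seeing the data, and 1.01 with no minimum, which lets in 5 genes listed at 0 in WT mice. On the HFD 3 of the 7 were higher and 4 lower (median -0.05), with Ttr at -1.41 and Enpp2 at -0.19. Of the 10 below the minimum, those 5 have no fold, and the other 5 were higher in Gpr75-/- mice by 0.42 to 1.30. In Gpr75-/- and WT mice, Lbp had 6.19 and 4.54 CPM and Otx2 6.30 and 4.75 CPM. Both WT levels lay under 5.47 CPM, which equals the minimum, so these genes passed only with the higher Gpr75-/- level. The median of 0.45 is the difference of Lbp itself. No weight therefore rests on the number of passing genes or on their median.

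Peptides and receptors of feeding circuits were balanced on chow. Of 25 that passed, 13 were higher and 12 lower, with a median of 0.04, 1 higher and 2 lower by 1.2-fold. On the HFD 23 of the same 25 were higher, with a median of 0.20. The lowest of the list on chow was Penk, given above (-0.50, HFD 0.11). Pomc, the precursor of the satiety peptide alpha-MSH, had 14.2 and 17.1 CPM on chow (-0.28) and was at 0.46 on the HFD. Npy, a hunger peptide, had 22.1 and 23.3 CPM (-0.08, HFD 0.47). Cartpt was at -0.14 (HFD 0.20), Vip, a peptide of the circadian nucleus, at 0.30 (HFD 0.35), and Trh, which drives the thyroid axis, had 79.4 and 69.1 CPM (0.20, HFD 0.25). Agrp, Lepr, Mc4r and Ghsr fell under the minimum.

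Lists of other cell types had medians nearer 0. Astrocyte genes had a median of 0.05 (11 of 20 higher, 4 lower), with Mlc1 at 0.18 and Slc4a4, a bicarbonate transporter, at -0.27. General neuron genes had a median of -0.03 (1 of 24 higher, 12 lower), and Snap25, a vesicle fusion protein, had 2235 and 2369 CPM (-0.08). Microglia genes had a median of -0.01 (5 of 16 higher, 8 lower) and vessel genes one of -0.05 (3 of 16 higher, 10 lower). Ependymal and tanycyte genes were spread more widely, with 8 of 14 higher and 6 lower and an interquartile range of -0.16 to 0.16 (median 0.08, HFD 0.00), from Crym at -1.02 to Vim at 0.26. None of the astrocyte, neuron, microglia or vessel genes was higher by 1.2-fold, and 1, Slc4a4, was lower.

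**Figure D5:**
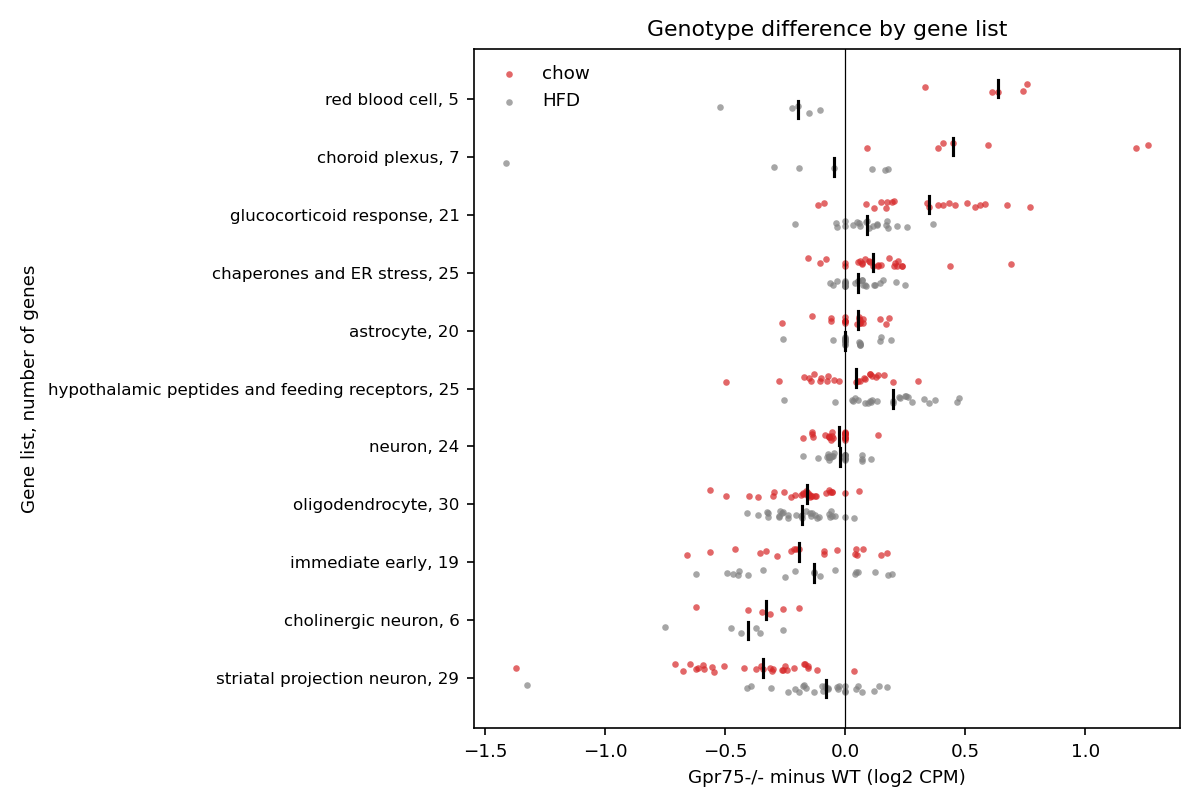
Gpr75-/- minus WT in log2 CPM for the genes of 11 lists that passed the minimum, on chow (red) and on the HFD (gray), 1 point per gene, with black bars at the medians. On chow, red blood cell (0.63) and glucocorticoid response genes (0.35) lie to the right, and oligodendrocyte (-0.16) and striatal genes (-0.34) to the left.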

How the data were processed

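Libraries were made by the authors with the SMART-Seq mRNA LP kit and sequenced as paired reads. The submitters' processing notes name STAR, featureCounts, StringTie, DESeq2 and GRCm39, with no versions. For each diet the authors deposited a table with a mean signal per gene over 6 mice (normalized read counts) and 1 group level per genotype, taken as log2 of a log2 value. The other 9 value columns of each table hold the authors' fold changes, standard errors, test statistics and p-values, and were not used. The means summed to 18280462 on chow and 19420111 on the HFD, and depths of single mice were not analysed here. No intervals are given, since the columns that would supply them were left unused.

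Group levels v were converted to CPM as 2(2v − 1) with numpy 2.4.6 and pandas 2.3.3 (Python 3.11.15; plots, matplotlib 3.10.9), a step tested on simulated data. The simulated levels were made on that same scale with a small spread between mice. That test therefore could not check the reading of the scale, or genes with a large excess. The reading of the scale was chosen because it gave the means back; whether logs were averaged before or after the second log could not be settled. The excess is log2 of the mean CPM over the average of both group levels. Planned count tests could not be run on group levels.

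The genes and lists were chosen with earlier results of these data known. Named genes came from Gpr75, the 15 highest and 15 lowest protein-coding genes, 5 and 5 of each other class with at least 10 genes, 3 and 3 per level, the 20 with the highest means, and 4 and 4 per list. Parent genes of pseudogenes, other genes named inside lists, the 6 lists of striatal, dopamine, cholinergic, cortical, thalamic and leptomeningeal markers, the gene spans and the motifs were chosen after values were seen. Other elements searched in promoters (heat shock, cAMP and serum response elements) are not reported. Where a gene that met a rule is absent, it is not reported here. The genes nearest the minimum were Gm10767 inside (difference 0.22) and Gm47033 outside (difference -0.19).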

Additional observations from a re-analysis of the deposited data

How the results depend on the processing

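No paired analysis was possible because the tables hold no values of single mice, and for the same reason count models, a replicate block and leaving out each mouse were not run. Other settings were compared within ± 0.0426 (log2), the median limit of rounding. Genes higher and lower by 1.2-fold numbered 507 and 486 with a minimum mean of 50, 120 and 169 with 200, and 1021 and 924 with none. At 1.5-fold they were 41 and 32 with 50, and 104 and 87 with none, and 11 and 9 with 200. With a minimum of 50 the medians were 0.13 for processed pseudogenes, 0.54 for choroid plexus and -0.14 for immediate early genes. With 200 they were 0.057 for processed pseudogenes, 0.20 for glucocorticoid response and 0.60 for choroid plexus genes. At that minimum they were 0.69 for red blood cell, -0.089 for immediate early and -0.38 for cholinergic genes. With none they were 0.16 for processed pseudogenes, 1.01 for choroid plexus, 5 of whose genes are listed at 0 in WT mice, and -0.37 for cholinergic genes. Read as log2(log2(CPM + 1) + 1), the levels gave 32 genes higher and 26 lower by 1.5-fold and medians of 0.55 for choroid plexus and -0.37 for cholinergic genes, but gave the mean back within 0.05 for only 47.6% of the genes. Without the 25 genes of high excess, a choice made after seeing the data, 12 genes were higher and 11 lower by 1.5-fold, and the medians were 0.24 for choroid plexus and -0.14 for immediate early genes. Without genes on another list the glucocorticoid median was 0.40. Apart from the fewer or more genes each minimum admits, the cause of these shifts was not tested. The balance of genes past 1.2-fold turned from more lower to more higher with a minimum of 50 or none, and past 1.5-fold in each of the settings above that give both counts. No median changed sign among the 4 classes and 9 lists recomputed under these settings, and the other lists were not recomputed. Differences under the rounding step could not be seen.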

Other observations

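Genes of energy supply and protein synthesis stayed near 0 on chow. The 80 nuclear genes of the respiratory chain had a median of 0.02 (40 higher, 15 lower), and those named highest were Ndufb1 (0.15) and Ndufa12 (0.15). The 16 genes encoded in the mitochondrial genome had a median of -0.04 (2 higher, 8 lower), with mt-Nd4 at -0.17 and mt-Atp8 at 0.25. The 77 cytosolic ribosomal protein genes had a median of 0 (25 higher, 26 lower) and ran from Rpl13 (-0.22) to Rpl30 (0.30). Cilia genes had a median of 0.04 (17 of 32 higher, 11 lower), from Mchr1 (-0.18) to Ift122 (0.18). Histone genes had a median of -0.02 (6 of 14 higher, 7 lower), with H2bc6 at 0.27.

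Clock genes had a median of 0.05 on chow, with Nfil3 at 0.37 with 12.6 and 9.76 CPM and Rorb at -0.30. Thyroid hormone genes had a median of 0, with Hr, a corepressor that the hormone induces, at 0.46 with 60.4 and 43.8 CPM, beside Crym at -1.02. Thalamic genes had a median of 0 on chow and -0.24 on the HFD, where 10 of 12 were lower. Cortical genes had medians of -0.09 and 0, and leptomeningeal genes 0.10 and 0.23. These last 3 lists were written after values were seen. The median was 0 on each autosome and on X.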
